A study of Arabidopsis thaliana with 15 samples.

Results

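The 46 nuclear genes described here encode the proteins that Arabidopsis thaliana imports into its chloroplasts to build the photosystems, their antennae and the chain that carries electrons between and after them. They were chosen by gene identifier and not by a rule on measured values, though with earlier results of these data known. They make up 46 of the 32733 genes counted in every library. They comprise 4 LHCA genes, 14 LHCB genes, 12 PSA genes, 10 PSB genes and 6 genes for electron carriers and the chloroplast ATP synthase. Total RNA depleted of ribosomal RNA was sequenced from rosettes in 15 libraries, with strand kept. There were 3 libraries each of the mutant lines pgn (AT1G56570), mef37-1 (AT5G08305), at3g50420 and at5g10690, each labelled as a knock-out of the gene given by its identifier, by T-DNA insertion in all labels but that of at5g10690 library 3, and 3 of the wild type Col-0. The study is about pentatricopeptide repeat proteins and organelle RNA editing, and none of the mutated genes is among the 46. Per the labels, plants had no treatment and grew in 16 h of light at 20 °C and 8 h of dark at 18 °C, in 80% humidity, while the study's methods give temperatures slightly above these. The labels give an age of 25.5 days for the libraries of Col-0, pgn, mef37-1 and at3g50420. For at5g10690 they give growth stage 1.14 for libraries 1 and 2, while the label of library 3 gives planting and harvest dates 41 days apart. Each line has libraries numbered 1, 2 and 3, and no source used here says what the number stands for or whether libraries come from separate plants, so p-values measure the spread between libraries, which may be technical.

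The labels were checked on the mutated genes. AT5G10690 had 1 to 4 counts in the at5g10690 libraries, against 201 to 319 in Col-0, and AT1G56570 had 6 to 16 in pgn, against 22 to 36 in Col-0. AT5G08305 had 12 to 20 counts in the libraries labelled mef37-1, against 8 to 21 in Col-0, and AT3G50420 had 10 to 13 in the libraries labelled at3g50420, against 11 to 16 in Col-0. The counts of these last genes do not separate the lines, so both are called by their labels. Library totals ran from 19555274 to 30901304 counts, of which 59.1% to 65.0% lay on plastid genes. Leaf identity was seen in the mesophyll markers RBCS1A, RCA and CA1, which summed to 5144 to 20881 TPM, a level per transcript length. The root markers EXPA7, COBL9 and IRT1, the flower markers AP3 and PI, the seed markers CRU3 and SESA3 and the senescence marker SAG12 had at most 3 counts in any library. A further flower marker, AG, had at most 4 counts. A further senescence marker, SAG13, was not absent and ran from 0.118 to 123.4 TPM, so senescence is not excluded by these markers. Library 3 of at5g10690 had the lowest level of 45 of the 46 genes, and the counts of calls that rest on it are also given without it. In the count tables of the libraries labelled mef37-1, at3g50420 and at5g10690 the column headings carry other names than the labels, and each table was taken as that of the library it was deposited for.

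Photosystem II splits water and passes electrons through the cytochrome b6f complex and plastocyanin to photosystem I, which reduces ferredoxin, and ferredoxin-NADP reductase then makes NADPH. Both photosystems are mosaics of subunits made in the plastid and subunits encoded in the nucleus, and their outer antennae of chlorophyll a/b-binding proteins are wholly nuclear-encoded. Transcripts of these genes are among the most abundant in leaves and are known to respond to light, the clock, sugar and the state of the chloroplast.

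Levels are given as TPM, the count per exonic length scaled to a fixed sum over the genes of chromosomes 1 to 5, so that genes can be compared with each other. A TPM value is a share, and a fall of these abundant genes raises the share of the rest. Of the 46 genes, 26 were among the 50 nuclear genes with the highest mean level and 35 among the highest 100. The highest was LHCB1.3 (AT1G29930) with a mean of 28339.7 ± 6864 TPM (SD, n = 15 libraries), the fourth highest nuclear gene. LHCB1.5 (AT2G34420) followed with 18004 ± 3178 TPM and PSBR (AT1G79040) with 8819 ± 1293 TPM. At the low end stood LHCB4.3 (AT2G40100) with 62.2 ± 10.13 TPM, at rank 1825. The next lowest, PSBS (AT1G44575) with 546 TPM and PSBY (AT1G67740) with 610.0 TPM, were about an order of magnitude above it, and their SDs of 105 and 136 TPM overlapped. The lowest count of any member in any library was 434, so counting error is small beside the spread between libraries.

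Several members are copies of one another, and reads that fit 2 places were counted at both. To see how much of each gene this touches, the share of its exonic 75-base words, the length of a read, that occur elsewhere in the TAIR10.1 genome was counted. It was 0 for 38 of the 46 genes. The highest shares were 20.5% in LHCB2.2 (AT2G05070) and 16.2% in LHCB2.1 (AT2G05100), which share words with each other. LHCB1.1 (AT1G29920) had 10.4%, LHCB1.5 9.27%, LHCB1.3 7.53% and LHCB1.4 (AT2G34430) 7.27%. Exact words only were compared, and reads with mismatches may be shared more widely, so the values of these copies are less certain than those of single genes.

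The bases just before the annotated start are shown for 2 genes with large differences between libraries and for LHCB4.3, so that the members can be seen as sequence. Over all lines LHCB4.3 had a log2 fold change near 0 in the libraries numbered 3 against 2. Within lines its log2 CPM in library 3 minus library 2 ran from -0.68 in at5g10690 to 0.49 in at3g50420. The 250 bases upstream were read from RefSeq's TAIR10.1 assembly at chr2:14524357-14524606, plus strand, for LHCB1.4, at chr3:10255656-10255905, plus strand, for LHCB2.4 (AT3G27690), and at chr2:16745378-16745627, plus strand, for LHCB4.3. They are written 5′ to 3′ on the strand of the gene, and capitals mark matches, on either strand, to 6 motifs: the G-box CACGTG, the CCAAT box CCAATC, the I-box GATAAG, the evening element AAAATATCT, the CCA1 element AAAAATCT and the TATA box TATAAA.
LHCB1.4: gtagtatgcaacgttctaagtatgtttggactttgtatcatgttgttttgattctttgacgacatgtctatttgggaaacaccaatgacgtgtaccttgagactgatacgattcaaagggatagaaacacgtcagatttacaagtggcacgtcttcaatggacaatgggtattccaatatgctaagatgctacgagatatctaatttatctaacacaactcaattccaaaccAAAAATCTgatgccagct
LHCB2.4: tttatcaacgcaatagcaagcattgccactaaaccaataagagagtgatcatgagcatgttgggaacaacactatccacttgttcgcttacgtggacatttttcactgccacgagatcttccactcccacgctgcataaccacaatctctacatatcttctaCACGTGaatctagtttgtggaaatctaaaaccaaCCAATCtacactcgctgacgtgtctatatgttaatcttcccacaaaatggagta
LHCB4.3: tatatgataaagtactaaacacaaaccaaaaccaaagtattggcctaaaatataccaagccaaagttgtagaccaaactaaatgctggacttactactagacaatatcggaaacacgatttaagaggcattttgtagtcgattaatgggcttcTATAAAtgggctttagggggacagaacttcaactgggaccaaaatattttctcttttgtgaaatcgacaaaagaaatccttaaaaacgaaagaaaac

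LHCB1.4 held the CCA1 element 18 bases before its start, LHCB2.4 a G-box and a CCAATC motif, and LHCB4.3 a TATAAA match. Among the 46 windows, the G-box was found in 9 (19.6%), against 6.49% of the windows of 27443 nuclear protein-coding genes. The CCAAT box was found in 13 (28.3%), against 10.2%, and the I-box in 11 (23.9%), against 12.3%. The CCA1 element was in 5 (10.9%), against 6.69%, the evening element in 1 (2.17%), against 2.36%, and the TATA box in 19 (41.3%), against 47.3%. These are matches of letters and were not tested as sites.

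Taken as a group, the 46 genes gave 8.45% to 21.4% of nuclear TPM in the libraries numbered 3, 18.6% to 24.7% in those numbered 2 and 16.9% to 19.3% in those numbered 1. In the order pgn, mef37-1, at3g50420, at5g10690 and Col-0, which is kept for every row of values that follows, the share was 14.1, 21.4, 17.8, 8.45 and 11.4% in the libraries numbered 3. It was 24.7, 19.9, 22.1, 20.4 and 18.6% in those numbered 2 and 19.0, 19.0, 19.3, 18.7 and 16.9% in those numbered 1. The libraries numbered 3 thus ranged widely, with at5g10690, Col-0 and pgn low and the library labelled mef37-1 above its own libraries 2 and 1 by this share. The libraries numbered 1 ranged least. LHCB genes gave the most, 4.08% to 11.2% in the libraries numbered 3, 9.91% to 13.1% in those numbered 2 and 8.96% to 10.5% in those numbered 1.

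**Figure D1:**
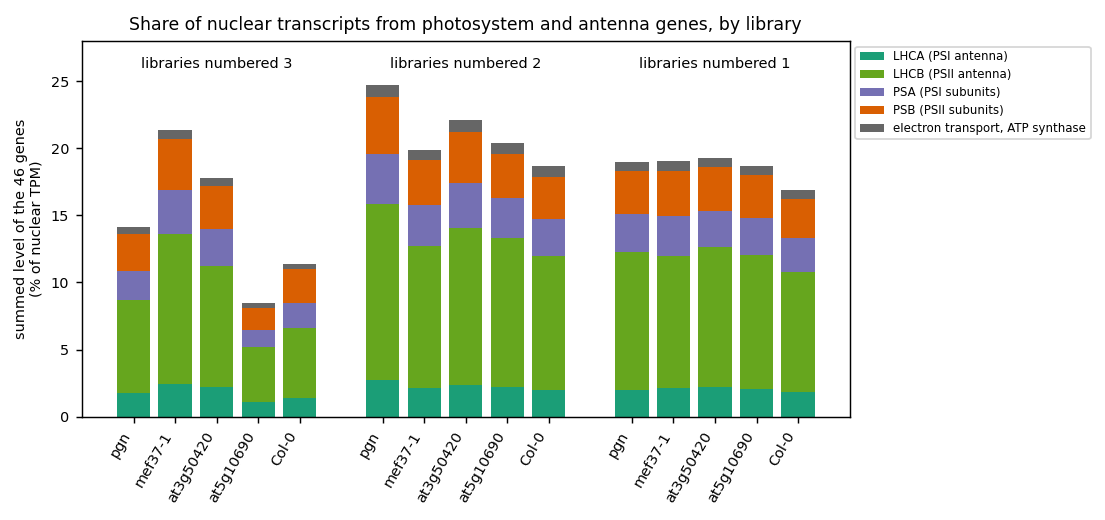
Summed level of the 46 genes in each library, as a percent of nuclear TPM, stacked by role, with the libraries grouped by number. The bars numbered 3 run from 8.45% (at5g10690) to 21.4% (mef37-1), and the bars numbered 1 only from 16.9% to 19.3%.

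Because same-numbered libraries of different lines deviated together, the numbers were compared over all 15 libraries with the line as a covariate. Photosystem and antenna genes were lower in the libraries numbered 3 than in those numbered 2. Of the 46, 36 were called lower and 0 higher at an adjusted p under 0.05, against 17.2% of the 18358 genes tested called lower and 15.2% called higher (edgeR's quasi-likelihood test, two-sided, Benjamini-Hochberg adjustment over all genes). The members' median log2 fold change was -0.74, where that of all genes was 0.027. All but LHCB4.3 had a value below 0. The largest differences were those of LHCB1.4, an apoprotein gene of the trimeric light-harvesting complex, with a log2 fold change of -1.58 ± 0.35 (SE, adjusted p = 0.0047), of FD2 (AT1G60950), the main leaf ferredoxin, with -1.55 ± 0.22 (adjusted p = 0.00036), and of LHCB1.2 (AT1G29910) with -1.39 ± 0.27 (adjusted p = 0.00192). The smallest were those of PSAL (AT4G12800), which helps to dock the mobile antenna on photosystem I, with -0.37 ± 0.17 (adjusted p = 0.116), of PSBR, a small photosystem II subunit, with -0.17 ± 0.18 (adjusted p = 0.492), and of LHCB4.3, a minor antenna gene, with 0.0018 ± 0.16 (adjusted p = 0.995). The number called was 17 without the 3 pgn libraries, 33 without library 3 of at5g10690, and 12 when the at5g10690 and Col-0 libraries were left out together, a choice made after their values were seen. Without library 3 of at5g10690, 2584 of all 18514 genes tested were called lower. For the fits that gave 17 and 12 this share is not given here, so those counts cannot be set against it.

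The difference between the libraries numbered 3 and those numbered 1 ran the same way and was smaller. Of the 46 genes, 28 were called lower and 0 higher, against 18.4% and 15.5% of all genes tested, and the median was -0.58, with 0.0069 for all genes. The comparison shares the libraries numbered 3 with the one above and is no second test of them. LHCB1.4 (-1.42 ± 0.35, adjusted p = 0.0088), FD2 (-1.30 ± 0.22, adjusted p = 0.00114) and LHCB1.2 (-1.20 ± 0.27, adjusted p = 0.00495) differed most. LHCB4.3 (0.054 ± 0.16), PSBR (-0.17 ± 0.18) and LFNR1 (AT5G66190) (-0.24 ± 0.15), a ferredoxin-NADP reductase gene, differed least and were not called. Here the number called rested on single libraries. It was 8 without library 1 of at5g10690, 9 without library 3 of pgn, 10 without library 3 of Col-0, 13 without library 3 of at5g10690, 14 without library 1 of Col-0, 14 without library 1 of pgn and 13 with no line in the model. The lowest of these, as shares of 46, lie near the 18.4% of all genes called lower with all libraries, a share that itself changes with the libraries kept. With library 3 of at5g10690 left out, 2492 of 18514 genes were called lower. For the other fits that share is not given here, so their counts cannot be set against all genes of the same fit. Over all fits with 1 library left out, members called numbered 8 to 37, and the median stayed between -0.74 and -0.37. Without the 3 pgn libraries, 5 members were called, where 4098 of all genes were called in either direction. With the at5g10690 and Col-0 libraries left out together, a choice made after their values were seen, 3 were called. There 1884 of all genes were called in either direction.

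Between the libraries numbered 2 and those numbered 1, 0 of the 46 genes passed the test by edgeR or by DESeq2, and 0 had an unadjusted p under 0.05 by edgeR, against 1.75% of all genes called lower and 0.692% called higher. The median was 0.19, with 0.10 (without at5g10690 library 2) to 0.36 (without at5g10690 library 1) when 1 library was left out, and the values lay between 0.0060 and 0.37. LHCB2.4 (0.37 ± 0.30, or 0.21 to 0.57 with 1 library left out), PSBY (0.28 ± 0.17) and LHCB1.1 (0.28 ± 0.26) had the highest values, and PSBR (0.0060 ± 0.18), PSAH1 (AT3G16140) (0.0073 ± 0.17) and PSBX (AT2G06520) (0.042 ± 0.21) the lowest.

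**Figure D2:**
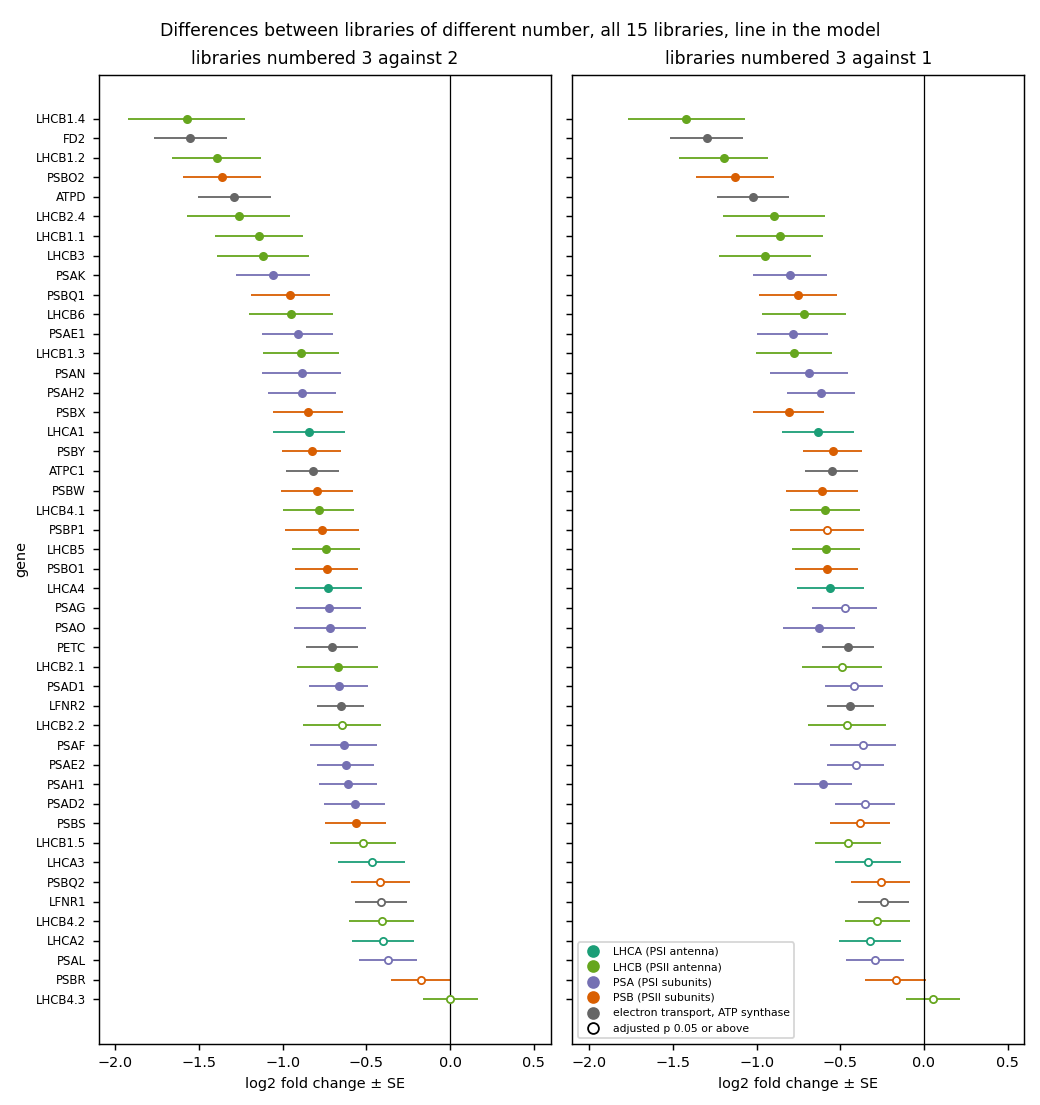
Log2 fold change (x axis) with its SE for each of the 46 genes (y axis), libraries numbered 3 against those numbered 2 on the left and against those numbered 1 on the right, coloured by role, with open points where the adjusted p was 0.05 or above. The 36 filled points on the left and 28 on the right all lie below 0, and LHCB4.3 and PSBR lie nearest to 0 in both panels.

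The antenna of photosystem II, the largest group, showed the widest span of responses in the libraries numbered 3 against 2, through LHCB4.3. Without LHCB4.3, its log2 fold changes ran from -1.58 to -0.41, while those of the PSB genes ran from -1.36 to -0.17. Of the 14 LHCB genes, 10 were called lower in the libraries numbered 3 than in those numbered 2, and 9 lower than in those numbered 1. LHCB1.3 had 21561, 31832, 25756, 13059 and 15063 TPM in the libraries numbered 3, 37302, 30209, 33566, 33873 and 31712 TPM in those numbered 2 and 31451, 29526, 31773, 31154 and 27259 TPM in those numbered 1. The at5g10690 and Col-0 libraries numbered 3 lay far below every other library, and the one labelled mef37-1 lay within the range of those numbered 2. LHCB1.4, which lies next to LHCB1.5 on chromosome 2, had 3429.7, 7526, 5113, 1231 and 1767 TPM in the libraries numbered 3, 10426, 8318, 9129.6, 8496 and 7325 TPM in those numbered 2 and 8586, 7400.5, 7373, 7895 and 6767 TPM in those numbered 1. LHCB2.4, the least abundant of the LHCB2 genes, had 548, 944, 965, 195 and 267 TPM in the libraries numbered 3, 1377, 979, 1264, 1001 and 796 TPM in those numbered 2 and 777, 912, 856, 739.8 and 768 TPM in those numbered 1. In both genes at5g10690 3 and Col-0 3 were the lowest libraries and pgn 3 the next. The libraries numbered 3 overlapped those numbered 2 and 1 through the one labelled mef37-1 in LHCB1.4, and through those labelled mef37-1 and at3g50420 in LHCB2.4. LHCB5 (AT4G10340), the monomeric antenna protein CP26, had 5453, 8045, 6795, 3189.8 and 4496 TPM in the libraries numbered 3, 9407, 7672, 8582, 7367 and 6642 TPM in those numbered 2 and 6965, 7235, 7084, 6974 and 6246 TPM in those numbered 1. LHCB4.3, a copy of the CP29 gene, had 72.7, 70.5, 82.7, 50.9 and 71.8 TPM in the libraries numbered 3, 66.1, 50.6, 54.4, 62.7 and 66.2 TPM in those numbered 2 and 44.3, 61.3, 65.5, 56.5 and 56.8 TPM in those numbered 1. By this share 4 of the 5 libraries numbered 3 lay above all those numbered 2 and 1, and at5g10690 3 lay among them, while the log2 fold change given above was near 0. Among the others, LHCB3 (AT5G54270), a trimer subunit, gave -1.12 ± 0.28 and LHCB6 (AT1G15820), CP24, -0.95 ± 0.25 on the log2 scale for libraries numbered 3 against 2, and LHCB4.1 (AT5G01530) gave -0.79 ± 0.21. LHCB4.2 (AT3G08940) with -0.41 ± 0.20, LHCB1.5 with -0.52 ± 0.20 and LHCB2.2 with -0.65 ± 0.23 did not pass, LHCB2.2 with an adjusted p just above 0.05. For the other trimer genes the value was -0.89 ± 0.23 in LHCB1.3, -1.14 ± 0.26 in LHCB1.1, -0.67 ± 0.24 in LHCB2.1 and -1.26 ± 0.31 in LHCB2.4, and for LHCB5 it was -0.74 ± 0.20, all called. Without library 3 of at5g10690 the calls against the libraries numbered 2 and 1 were 9 and 5 of the 14 LHCB genes, 2 and 0 of the 4 LHCA genes, 10 and 3 of the 12 PSA genes, 7 and 2 of the 10 PSB genes and 5 and 3 of the 6 others, all lower. Of all 18514 genes tested, 2584 and 2492 were called lower there. LHCB2.1, PSAD2 and PSBS lost their call against number 2.

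All 4 antenna genes of photosystem I had values below 0 in the libraries numbered 3 against 2, and 2 were called. Differences between these genes were not tested. LHCA1 (AT3G54890) and LHCA4 (AT3G47470), whose proteins pair with each other, were called lower in the libraries numbered 3 than in those numbered 2, with log2 fold changes of -0.84 ± 0.22 and -0.73 ± 0.20. LHCA2 (AT3G61470) with -0.40 ± 0.19 and LHCA3 (AT1G61520) with -0.47 ± 0.20, the other pair, were not called (adjusted p = 0.116 and 0.0888). LHCA1 had 2953, 4689, 4110.0, 1855 and 2231 TPM in the libraries numbered 3, 5576, 4382, 4962, 4618 and 4156 TPM in those numbered 2 and 3764, 3914, 4784, 4126 and 3482 TPM in those numbered 1. LHCA4 had 5493, 7669, 7046, 3169 and 4209 TPM in the libraries numbered 3, 9346, 7332, 8272, 7185 and 6429 TPM in those numbered 2 and 6586, 7329, 6451, 6533 and 6464 TPM in those numbered 1. In both genes the libraries of pgn, at5g10690 and Col-0 numbered 3 lay below all libraries numbered 2 and 1.

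Among the 12 nuclear PSA genes, 11 were called lower in the libraries numbered 3 than in those numbered 2, and 6 lower than in those numbered 1. The exception in the first comparison was PSAL. PSAD1 (AT4G02770), which forms the ferredoxin dock on the stromal side, had 1903, 2749, 2462, 1426 and 1601 TPM in the libraries numbered 3, 2813, 2476, 2743, 2839.9 and 2769 TPM in those numbered 2 and 2334, 2412, 2269, 2271 and 2013 TPM in those numbered 1. PSAE2 (AT2G20260), a second docking subunit, had 801, 1230.3, 909, 543 and 740.1 TPM in the libraries numbered 3, 1334, 1173, 1218, 973 and 875 TPM in those numbered 2 and 1019, 1068, 717, 919 and 938 TPM in those numbered 1. PSAK (AT1G30380), a membrane subunit on the side of the antenna, had 1811, 2799, 2422, 952 and 1488 TPM in the libraries numbered 3, 3953, 3183, 3712, 2991 and 2748 TPM in those numbered 2 and 2918, 3125, 2065, 2659 and 2698 TPM in those numbered 1. PSAK was the PSA gene with the largest difference, -1.06 ± 0.22 on the log2 scale for libraries numbered 3 against 2 (adjusted p = 0.00334), and its libraries numbered 3 overlapped those numbered 2 only by the library labelled mef37-1. Of the other stromal docking genes, PSAD1 gave -0.67, PSAD2 (AT1G03130) -0.57, PSAE1 (AT4G28750) -0.91 and PSAE2 -0.62 in the same comparison. On the lumen side, PSAF (AT1G31330), which docks plastocyanin, gave -0.64 and PSAN (AT5G64040) -0.89. PSAG (AT1G55670), which holds the antenna, gave -0.73. PSAH2 (AT1G52230), PSAH1 and PSAO (AT1G08380), which lie beside PSAL where the mobile antenna docks, gave -0.88, -0.61 and -0.72.

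Of the 10 PSB genes, 8 were called lower in the libraries numbered 3 than in those numbered 2, and 6 lower than in those numbered 1. PSBO1 (AT5G66570), the main gene of the extrinsic protein that shields the manganese cluster, had 3657, 5926, 4463, 2653 and 3265 TPM in the libraries numbered 3, 6660.1, 5288, 5707, 5499 and 5115 TPM in those numbered 2 and 4888, 5424, 4505, 5132 and 4848 TPM in those numbered 1. PSBO2 (AT3G50820), its second gene, had 809, 1339.6, 932, 392 and 572 TPM in the libraries numbered 3, 2041, 1559.7, 1794, 1625 and 1558 TPM in those numbered 2 and 1358, 1499, 1458, 1395 and 1411 TPM in those numbered 1. In PSBO2 all 5 libraries numbered 3 were below all 5 numbered 2 and all 5 numbered 1, whereas PSBO1 overlapped through the library labelled mef37-1. PSBS, the protein that switches on heat dissipation of excess light, had 457, 698, 580.1, 339 and 384 TPM in the libraries numbered 3, 653, 516, 628, 630.3 and 633 TPM in those numbered 2 and 436, 587, 617, 515 and 523 TPM in those numbered 1. In the same comparison PSBO1 gave -0.74, PSBO2 -1.36 and PSBS -0.56, all called. The other extrinsic subunits of the oxygen-evolving complex gave log2 fold changes, for libraries numbered 3 against 2, of -0.76 for PSBP1 (AT1G06680), -0.96 for PSBQ1 (AT4G21280) and -0.42 for PSBQ2 (AT4G05180), the last not called. The small membrane subunits gave -0.85 for PSBX, -0.83 for PSBY and -0.80 for PSBW (AT2G30570), all called, and PSBR was not.

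In the electron carriers and the ATP synthase, 5 of 6 genes were called lower in the libraries numbered 3 against each of the other numbers, LFNR1 being the exception both times. FD2 had 1102, 1696, 1286, 565 and 852 TPM in the libraries numbered 3, 2952, 2448, 3066, 2589 and 2448 TPM in those numbered 2 and 2125, 2180.0, 2489.6, 2174 and 2079 TPM in those numbered 1. Its 5 libraries numbered 3 lay below all the others, the library labelled mef37-1 included. PETC (AT4G03280), the Rieske iron-sulfur protein of the cytochrome b6f complex, had 737, 1170.1, 905, 583 and 719.5 TPM in the libraries numbered 3, 1205, 1069, 1193, 1112 and 1129 TPM in those numbered 2 and 915, 1063, 879, 918 and 935 TPM in those numbered 1. ATPC1 (AT4G04640), the gamma subunit of the ATP synthase, had 915, 1239, 1029, 606 and 716 TPM in the libraries numbered 3, 1490.2, 1260.0, 1435, 1289 and 1271 TPM in those numbered 2 and 1056, 1192, 1158, 1042 and 1038 TPM in those numbered 1. LFNR1 had 798, 1021, 867, 575 and 588 TPM in the libraries numbered 3, 938, 796, 898, 852 and 864 TPM in those numbered 2 and 706, 891, 797, 762 and 649 TPM in those numbered 1. On the log2 scale, against the libraries numbered 2, PETC gave -0.71 ± 0.16, ATPC1 -0.82 ± 0.16, ATPD (AT4G09650), the delta subunit, -1.29 ± 0.22, and LFNR2 (AT1G20020), the other reductase gene, -0.65 ± 0.14. The value for LFNR1 was -0.41 ± 0.15 (adjusted p = 0.0555).

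**Figure D3:**
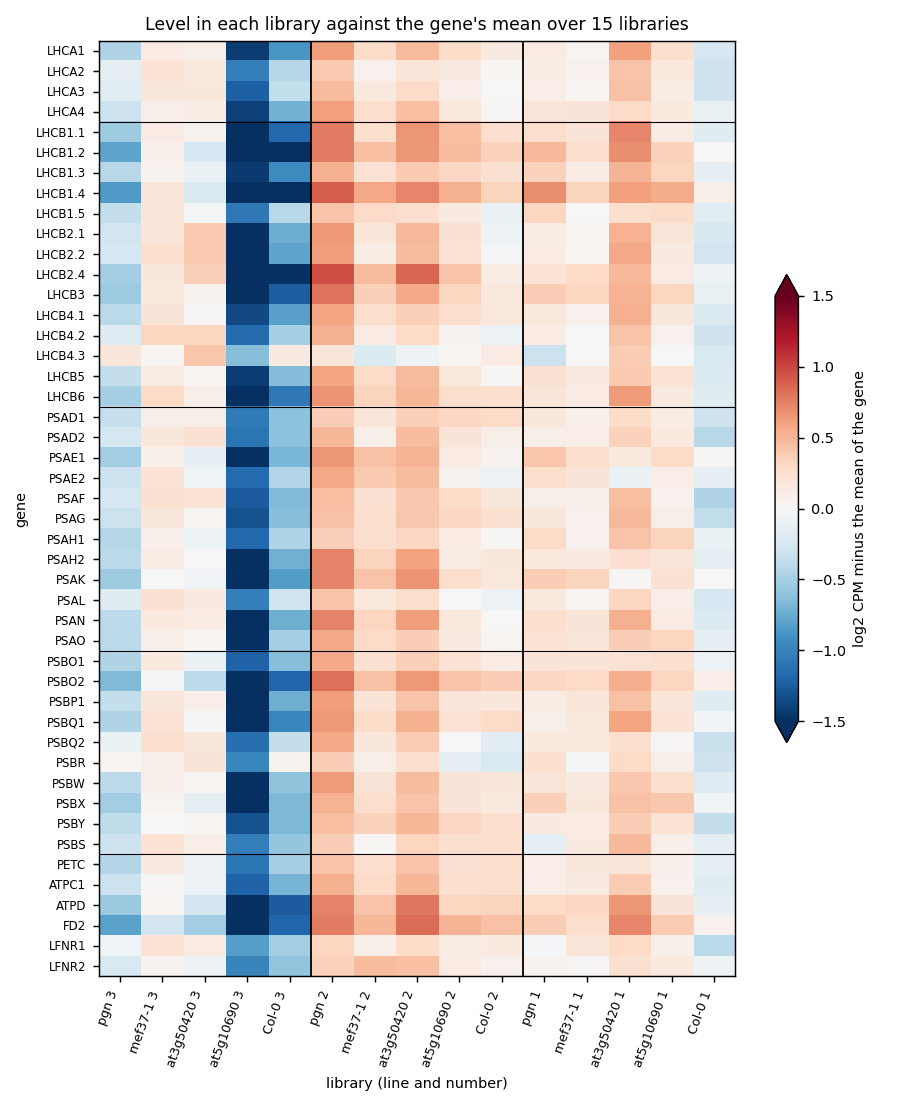
Log2 CPM of each of the 46 genes (rows, ordered by role) in each library (columns, grouped by number), minus the mean of the gene over the 15 libraries. Blue marks the low levels of at5g10690 3, Col-0 3 and pgn 3 in most rows, with LHCB4.3 and PSBR paler than their neighbours.

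The difference between numbers was not of one size in all lines. With 1 library a line and number it can be described and not tested within a line. On the log2 CPM scale with TMM factors, the members' median for library 3 minus library 2 was -0.93 in pgn, -0.13 in the libraries labelled mef37-1, -0.43 in those labelled at3g50420, -1.62 in at5g10690 and -0.80 in Col-0. The number of members below 0 was 46, 34, 44, 46 and 44 of 46. Library 3 minus library 1 gave medians of -0.57, 0.0030, -0.33, -1.59 and -0.51. The 15574 nuclear genes with at least 10 counts in all libraries had medians between -0.019 and 0.039 in these differences. By log2 TPM, where the median of those genes lay between -0.036 and 0.49, the members' medians in the same order of lines were -0.78, 0.12, -0.32, -1.24 and -0.69 for library 3 minus 2 and -0.34, 0.17, -0.024, -1.09 and -0.53 for library 3 minus 1. The direction in the libraries labelled mef37-1 thus depends on the scaling, and so does the size of library 3 minus 1 in those labelled at3g50420, with 25 members lower and 21 higher by log2 TPM. At the other end stood at5g10690, whose library 3 is the one with a different age label, and the part of age in the difference was not tested. By log2 CPM, FD2 was the member with the largest fall in the libraries labelled mef37-1 (-0.78 for library 3 minus 2) and at3g50420 (-1.36), and LHCB1.4 in pgn (-1.76), at5g10690 (-3.17) and Col-0 (-2.16).

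Copies of the same gene did not move alike. The log2 ratio of the TPM of 2 copies within a library does not depend on how libraries are scaled, and 13 such ratios were compared between the libraries numbered 3 and those numbered 2 and 1, by exact permutation tests of 5 against 5 libraries, two-sided, for which the smallest p is 0.00794. Of the 26 tests, 15 had an adjusted p under 0.05 (Benjamini-Hochberg over the 26). LHCB1.4 lost most against LHCB1.5. Its log2 ratio was -2.09, -1.58, -1.79, -3.15 and -3.00 in the libraries numbered 3, -1.12, -1.30, -1.12, -1.19 and -1.16 in those numbered 2 and -1.22, -1.25, -1.21, -1.31 and -1.34 in those numbered 1. The means were -2.32 ± 0.71 in the libraries numbered 3 and -1.18 ± 0.078 in those numbered 2 (SD, n = 5 each, exact permutation p = 0.00794, adjusted p = 0.0188), lower in 5 of 5 lines. As a share of the 5 LHCB1 genes, LHCB1.4 averaged 6.81% in the libraries numbered 3, 10.8% in those numbered 2 and 10.6% in those numbered 1, while LHCB1.5 averaged 32.7%, 24.5% and 25.5%.

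The second gene of the manganese-stabilizing protein behaved likewise. PSBO2 over PSBO1 averaged -2.37 ± 0.26 in the libraries numbered 3 and -1.72 ± 0.039 in those numbered 2 (SD, n = 5 each, exact permutation p = 0.00794, adjusted p = 0.0188), with no overlap between the groups. PSBQ1 over PSBQ2 averaged -2.29 ± 0.26 in the libraries numbered 3 and -1.73 ± 0.16 in those numbered 2, LHCB1.2 over LHCB1.3 -2.19 ± 0.25 in the libraries numbered 3 and -1.66 ± 0.070 in those numbered 2, and LHCB2.4 over LHCB2.1 -1.74 ± 0.38 in the libraries numbered 3 and -1.12 ± 0.077 in those numbered 2. All of these were lower in 5 of 5 lines, with an adjusted p of 0.0188 each (exact permutation test). Other pairs shifted the other way. LHCB4.2 over LHCB4.1 averaged -0.59 ± 0.077 in the libraries numbered 3 and -0.97 ± 0.085 in those numbered 2, and PSAE2 over PSAE1 -1.62 ± 0.16 in the libraries numbered 3 and -1.93 ± 0.039 in those numbered 2, each higher in 5 of 5 lines, with the same adjusted p. LHCB4.3 over LHCB4.1 averaged -5.30 ± 0.42 in the libraries numbered 3 and -6.11 ± 0.18 in those numbered 2 and LFNR1 over LFNR2 0.0074 ± 0.045 in the libraries numbered 3 and -0.24 ± 0.18 in those numbered 2, with adjusted p = 0.0275 each (exact permutation test). The first was higher in 5 of 5 lines. The ratio of LFNR1 to LFNR2 was higher in 4 of 5, and in Col-0 it was -0.068 in library 3 and -0.055 in library 2. The ratio of LHCB2.2 to LHCB2.1, which share the most sequence, differed by 0.035 (adjusted p = 0.361), and those of PSAD2 to PSAD1, PSAH2 to PSAH1 and LHCB1.1 to LHCB1.3 by 0.091, -0.28 and -0.27, none of them with an adjusted p under 0.05. The shifts of LHCB1.4, LHCB1.2, LHCB4.2, PSAE2, PSBO2 and PSBQ1 against their copies also had an adjusted p under 0.05 between the libraries numbered 3 and those numbered 1. The test takes the 5 libraries of a number as exchangeable and does not use the line. With 1 line left out all 15 kept their direction, and 14 of the 75 repeats had an adjusted p under 0.05, where 4 against 4 libraries cannot give an exact p below 0.0286.

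**Figure D4:**
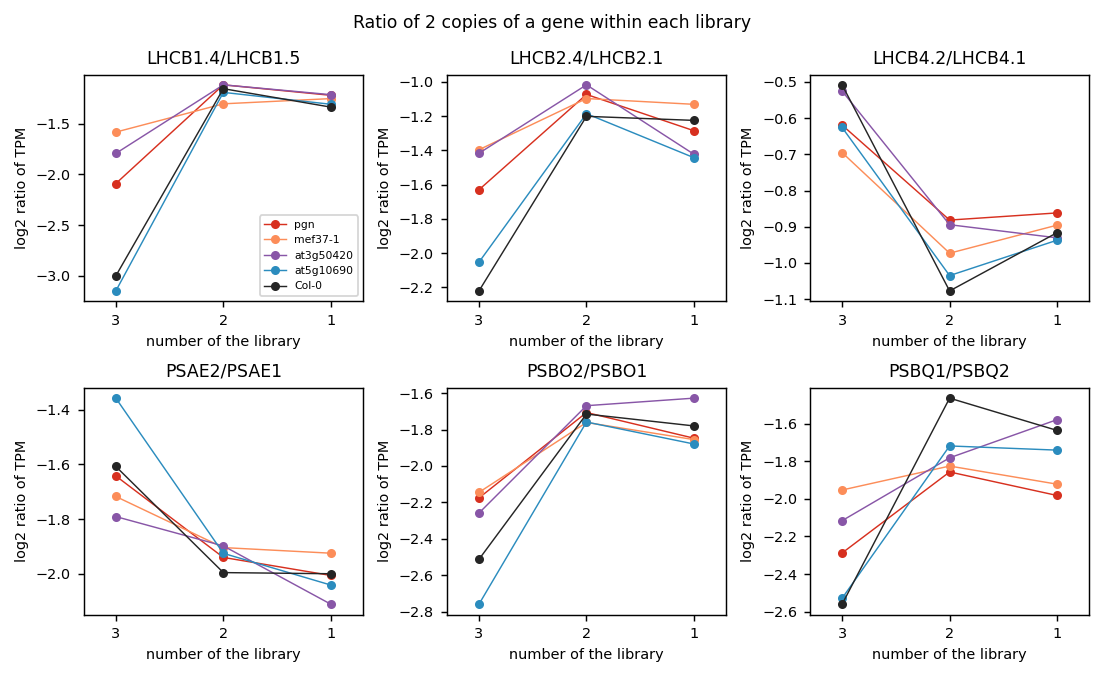
Log2 ratio of the TPM of 2 copies of a gene (y axis) in the libraries numbered 3, 2 and 1 (x axis), with 1 point per library and a line joining the libraries of a plant line. LHCB1.4, LHCB2.4, PSBO2 and PSBQ1 lie lower against their copies in the libraries numbered 3, and LHCB4.2 and PSAE2 higher, in each of the 5 lines against number 2.

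Each mutant line was then set against Col-0. No member passed the test in any line by edgeR or by DESeq2, while DESeq2 called 1, 5, 4 and 4 genes of all in pgn, mef37-1, at3g50420 and at5g10690. In pgn, 0 of 46 genes were called, against 0% of the 17521 genes tested, and 0 had an unadjusted p under 0.05 with a higher level, against 0.297%. The members' median log2 fold change was 0.39 and 45 of 46 values were above 0, LHCB2.4 (0.68 ± 0.53), LHCB1.4 (0.63 ± 0.66) and LHCB3 (0.60 ± 0.48) being the highest and LHCB4.3 (-0.0020 ± 0.19), PSBS (0.11 ± 0.29) and PETC (0.15 ± 0.31) the lowest. In the libraries labelled mef37-1, 0 members were called, against 0.00569% of 17561 genes, and 2, PSAE2 (0.47 ± 0.17) and PSBQ2 (0.45 ± 0.17), had an unadjusted p under 0.05, against 0.45% of all genes higher at that level. Their median was 0.37, with LHCB2.4 (0.65 ± 0.41), LHCB1.4 (0.57 ± 0.51) and LHCB3 (0.56 ± 0.35) highest, and LHCB4.3 (-0.085 ± 0.16), PSBR (0.19 ± 0.19) and PSBS (0.23 ± 0.24) lowest.

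The libraries labelled at3g50420 had the highest median, 0.51, with 46 of 46 values above 0. None was called, against 0% of 17599 genes, and 6 had an unadjusted p under 0.05, against 1.52% of all genes higher at that level. LHCB2.4 (0.92 ± 0.44), LHCB2.2 (0.81 ± 0.27) and LHCB2.1 (0.78 ± 0.26) were highest, and LHCB4.3 (0.23 ± 0.20), PETC (0.27 ± 0.27) and PSAE2 (0.33 ± 0.24) lowest. In at5g10690 the median was 0.052, 0 members were called, against 0.0114% of 17602 genes, and 0 had an unadjusted p under 0.05, against 0.17%. LHCB1.4 (0.25 ± 0.85), LHCB2.4 (0.16 ± 0.70) and LHCA1 (0.16 ± 0.49) were highest and LHCB4.3 (-0.18 ± 0.23), PSBR (-0.12 ± 0.35) and PETC (-0.055 ± 0.38) lowest. The SEs of LHCB1.4 show the limit of these comparisons, since each group holds 1 library of each number. The same 3 Col-0 libraries serve all 4 lines, and library 3 of Col-0 was among the lowest of all, so the 4 sets of values are not independent. With 1 library left out, the medians were 0.17 (without pgn library 2) to 0.61 (without pgn library 3) in pgn, 0.19 (without Col-0 library 3) to 0.59 (without Col-0 library 2) for mef37-1, 0.32 (without Col-0 library 3) to 0.71 (without Col-0 library 2) for at3g50420 and -0.19 (without at5g10690 library 2) to 0.41 (without at5g10690 library 3) in at5g10690.

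With the number of the library as a block, 0 members were again called in any line, while 1 gene of all was called in pgn (0.00571%), 2 in mef37-1 (0.0114%), 1 in at3g50420 (0.00568%) and 2 in at5g10690 (0.0114%). Members with a higher level at an unadjusted p under 0.05 numbered 37 in pgn, against 3.81% of all genes, 3 in mef37-1, against 1.68%, 30 in at3g50420, against 4.45%, and 0 in at5g10690, against 0.949%. The blocked medians were 0.38 in pgn, 0.42 for mef37-1, 0.54 for at3g50420 and -0.080 in at5g10690, where the direction turned. The unadjusted counts are given as a description, because none of these genes passed the adjustment over all genes.

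**Figure D5:**
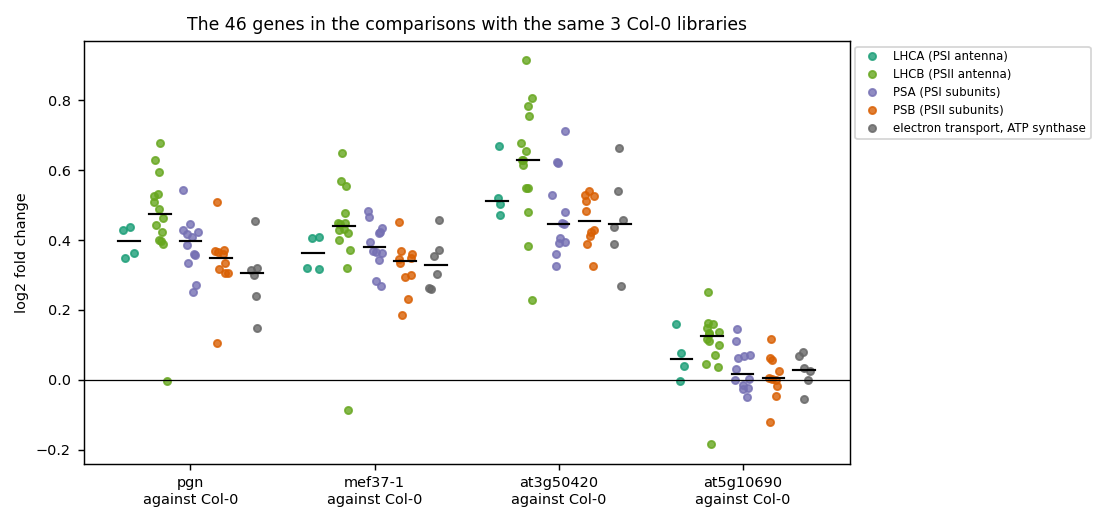
Log2 fold change (y axis) of each of the 46 genes in the 4 comparisons with Col-0 (x axis), coloured by role, with a bar at the median of each role. Points lie mostly between 0 and 1 for pgn, mef37-1 and at3g50420 and around 0 for at5g10690, and none passed the test.

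Other lists of genes were read beside the members and the share of all genes called given above, 17.2% lower and 15.2% higher against number 2. Of 20 other nuclear photosynthesis genes, all tested, 14 were called lower and 0 higher in the libraries numbered 3 against 2, with a median of -0.62, and 12 lower and 0 higher against 1. The 6 not called included PGRL1B (0.24 ± 0.090, adjusted p = 0.0544), TAP38 (0.12 ± 0.086) and STN7 (0.051 ± 0.11), with values above 0. PSB28 (-1.67 ± 0.25) and PSB27 (-1.44 ± 0.24), which serve photosystem II assembly and repair, differed most. PSB28 had 56.4, 106, 54.1, 32.1 and 42.3 TPM in the libraries numbered 3, 167, 128, 159, 145 and 166 TPM in those numbered 2 and 115, 116, 151, 124 and 142 TPM in those numbered 1, so that the library labelled mef37-1 was here too the highest of its number. Of 10 regulators of photosynthesis genes, 4 were called lower and 3 higher against the libraries numbered 2, and they moved in different directions. The GATA factor CGA1 was lower (-1.16 ± 0.34), while GLK1, a transcription factor that activates antenna and chlorophyll genes, was higher (0.98 ± 0.19, adjusted p = 0.002). GLK1 had 284, 268, 278, 227 and 238 TPM in the libraries numbered 3, 127, 99.3, 105, 118 and 116 TPM in those numbered 2 and 122, 139, 195, 135 and 87.9 TPM in those numbered 1. All 5 libraries numbered 3, the one labelled mef37-1 included, lay above the other 10. Of 12 clock genes, 2 were called higher and 1 lower, close to what those shares of all genes give in a list of this length. Among the called clock genes, PRR9 (1.37 ± 0.40) and ELF4 (0.46 ± 0.13) differed most. Of 6 early light-induced and related genes, of which 5 were tested, 1 was called higher, ELIP1 (1.37 ± 0.28), and 4 lower, OHP2 (-1.005 ± 0.16) the most. Without library 3 of at5g10690 the calls lower and higher against number 2 were 12 and 0 of the photosynthesis genes, 2 and 3 of the regulators, 1 and 0 of the clock genes and 4 and 1 of the early light-induced genes, CGA1, PRR9 and ELF4 being among those no longer called. Of all 18514 genes tested there, 2584 were called lower and 2186 higher. The labels give no hour of harvest, and its part in these differences was not tested.

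Markers of leaf cell types were read beside these results. The 3 mesophyll markers, which are photosynthesis genes themselves, were called lower in the libraries numbered 3 against 2, and their sum was 5144 to 16083 TPM in the libraries numbered 3, 18378 to 20881 TPM in those numbered 2 and 14057 to 19002 TPM in those numbered 1. The 3 epidermis markers summed to 228 to 277, 185 to 209.7 and 204 to 252 TPM for numbers 3, 2 and 1, with 0 called, and the 3 guard cell markers to 30.0 to 50.04, 30.9 to 39.6 and 26.6 to 31.6 TPM, with 0 called against number 2 and 2 higher against number 1. The companion cell marker SUC2 was higher in the libraries numbered 3 against 2 (0.41 ± 0.13). In whole rosettes fewer cells of a type and less RNA per cell cannot be told apart, and the part of cell makeup in these differences was not tested. The senescence marker SAG13 varied between 0.118 and 123.4 TPM and was lower in the libraries numbered 3 than in those numbered 1 (-4.42 ± 0.98), and its part was not tested either.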

How the data were processed

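Values for 15 libraries were taken from the deposited count tables, whole-number read counts per gene without normalization. Single-end 75-nt reads had been aligned by the authors in STAR 2.7.0c without splicing, each best position of a read being kept, and were counted by strand on exons with featureCounts 1.5.0-p2, reads with several positions included. Reads across exon junctions may be lost by this, and reads of near-identical copies counted more than once. Coordinates of the 46 genes are the same in the deposited tables and in RefSeq's TAIR10.1 annotation.

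Counts were tested in R 4.3.3 with edgeR 4.0.16 (TMM factors, filterByExpr, quasi-likelihood test, two-sided, Benjamini-Hochberg adjusted p under 0.05 over all genes tested). Lines were compared in fits of 6 libraries and numbers in a fit of 15 with the line as a covariate. All 46 genes passed the filter in each fit. The numbers come from the sample titles. Deviations of each mutant library from its line mean correlated with those of the same-numbered Col-0 library (0.274 to 0.753 over 18281 genes), so fits with the number as a block are given beside those without. Levels are TPM over nuclear genes, and log2 CPM used a prior count of 2. The tests were checked on simulated counts. No 2 libraries held the same counts. Genes named are 1 or 2 members per role with values in each library, the 3 highest and 3 lowest members of each comparison, the copies compared in pairs and up to 2 called genes of each list. The members and lists were chosen with earlier results of these data known. Alternatives were RLE factors, no filter, nuclear genes alone, DESeq2 1.42.0, the block, no line term, and leaving out each library or line.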

Additional observations from a re-analysis of the deposited data

Results flagged for a closer look

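In groups of 5 libraries with the same number, the sum of the members and 16 members were searched for a library far from the rest by Dixon's ratio. Of 51 groups, 6 had one, where chance gives about 1 in 20. Among the libraries numbered 1, Col-0 was lowest by a wide gap in the summed share, at 16.9% of nuclear TPM, and in LHCB5, at 6246 TPM. The library labelled mef37-1 was highest in LHCA4, at 7329 TPM, and the one labelled at3g50420 highest in FD2, at 2489.6 TPM. Among the libraries numbered 2, the one labelled mef37-1 was lowest in PSAD1, at 2476 TPM, and in PSBS, at 516 TPM. Among the libraries numbered 3 the search found none, although library 3 of at5g10690 was the lowest of all 15 libraries in 45 of the 46 genes.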

How the results depend on the processing

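Alternatives were RLE factors, no filter, nuclear genes alone, DESeq2, no line term, the number as a block, and leaving out each library or line. Those that left out at5g10690 and Col-0 together, the libraries numbered 3, or a line in the ratios of copies were chosen after seeing the data. No member was called in a comparison with Col-0 under any of these. Counts of all genes called with the block were 1 in pgn, 2 in mef37-1 and 1 in at3g50420, and 1, 4 and 4 with the block over all 15 libraries. DESeq2 called 1, 5, 4 and, in at5g10690, 4. No filter gave 1 in at3g50420, and libraries 1 and 2 alone 0 in mef37-1 and 0 in at5g10690. For 3 against 1, genes called were 4098 without pgn, 3945 without at5g10690 and 1884 without at5g10690 and Col-0. Members called were 13 with no line term, 5 without pgn, 15 without at3g50420, 9 without at5g10690, 8 without Col-0 and 3 without both of the last. For 3 against 2 these were 17 members without pgn, and 2712 genes and 12 members without at5g10690 and Col-0. For 2 against 1, genes called were 858 with no line term, 1163 by DESeq2, 4 without pgn, 145 without mef37-1, 228 without at3g50420, 0 without Col-0 and 37 without at5g10690 and Col-0. The cause of these changes was not tested.

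Log2 fold changes near 0 turned. LHCB4.3 in pgn was 0.0089 with RLE factors, 0.0081 over all 15 libraries with the block and 0.011 by DESeq2. In at5g10690 the block gave -0.067 for LHCB2.4 and -0.036 for LHCB1.4, and libraries 1 and 2 alone 0.058 for LHCB4.3, 0.24 for PSBR and 0.074 for PETC. For 3 against 1, LHCB4.3 was -0.046 without pgn and -0.020 without Col-0, PSBR 0.044 without at5g10690, and the ratio of PSAH2 to PSAH1 0.033 without at5g10690 and 0.030 without Col-0. For 3 against 2, LHCB4.3 was -0.0044 with RLE factors, -0.0066 by DESeq2, -0.046 without mef37-1 and -0.11 without at3g50420. For 2 against 1, PSBR and PSAH1 were -0.0091 and -0.0079 over nuclear genes alone, -0.031 and -0.016 without pgn, -0.024 and -0.032 without mef37-1, and -0.015 and -0.024 without Col-0, where PSBX was -0.0045. With 1 library left out, the ranges of results that changed were: log2 fold changes in pgn against Col-0 (LHCB4.3 -0.10 to 0.16, PSBS -0.11 to 0.34, PETC -0.060 to 0.36), genes called in mef37-1 against Col-0 (0 to 0), genes called in at5g10690 against Col-0 (0 to 2), log2 fold changes in at5g10690 against Col-0 (PETC -0.29 to 0.24, LHCA1 -0.085 to 0.52, LHCB2.4 -0.29 to 0.62, LHCB1.4 -0.18 to 0.74, PSBR -0.34 to 0.13), members called in 3 against 1 (8 to 37), log2 fold changes in 3 against 1 (LHCB4.3 -0.053 to 0.21, PSBR -0.30 to 0.015), genes called in 2 against 1 (0 to 731), log2 fold changes in 2 against 1 (PSBR -0.070 to 0.16, PSAH1 -0.084 to 0.16, PSBX -0.047 to 0.24), log2 fold changes in 3 against 2 (LHCB4.3 -0.12 to 0.16, PSBR -0.31 to 8.2e-04).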
